A study of Mus musculus with 6 samples.

Results

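Myc and genes tied to ribosome production were followed in immortalized mouse embryonic fibroblasts (MEFs, cultured connective tissue cells of embryonic origin) with and without GCN5, a histone acetyltransferase encoded by Kat2a. The 32 genes form a list chosen with earlier results of these data known, so counts of its called members are descriptions. It holds Myc and its partners Max and Mxd4, nucleolar and ribosome assembly factors and RNA polymerase I subunits. Metabolic and other genes known as Myc targets complete it. At least 1 probe set (a group of short array probes for a transcript) carried the symbol of 31 of the 32, out of 18193 named genes on the array. The expression of Mat2a was not analysed here. Those 31 genes had 71 probe sets. Each gene is described by its brightest probe set over all arrays unless another is named, and all 31 of these passed the filter on low signal.

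Myc is a transcription factor that binds DNA at E-box sequences as a dimer with Max, while Mxd4 competes with Myc for Max and acts as a repressor. Myc is known to raise the output of ribosomes in growing cells. In the nucleolus, RNA polymerase I makes the precursor of ribosomal RNA, small nucleolar ribonucleoproteins (snoRNPs) modify it, and a chain of assembly factors cuts it and builds the ribosomal subunits. Myc is also known to act on genes for making nucleotides and polyamines, which growing cells need.

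Total RNA was hybridized to 6 Affymetrix arrays. All cells were PCAF-/-, so they lacked the related acetyltransferase PCAF (gene Kat2b) in both groups, and no cells with PCAF were measured here. The labels give 3 arrays as PCAF-/-;GCN5+/- and 3 as PCAF-/-;GCN5-/-; no age or treatment is given beyond puromycin selection. The design states that MEFs with a conditional GCN5 knockout received a retrovirus with Cre recombinase, which removes the conditional part of the gene, or the vector alone. It writes GCN5+/- for both infections, so GCN5-/- was read as Cre and GCN5+/- as vector; virus and genotype then changed together and cannot be told apart. Each genotype has 2 RNAs from line A (A1 and A2, duplicates) and 1 RNA from line B, an independently immortalized line. Only 2 lines therefore stand behind any p-value over both lines, and a single line behind any p-value within line A. The spread between the duplicates may be technical.

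Values are given in the order A1, A2, B throughout. Array medians lay between 7.40 and 7.45 on the log2 scale. The Kat2a probe set 1422972_s_at read 9.31, 10.07 and 11.51 in GCN5+/- cells against 7.97, 7.85 and 7.75 in GCN5-/- cells, a log2 change of -2.44 ± 0.36 (SE, n = 3 per genotype; limma adjusted p = 0.00823, for Kat2a over all 45037 probe sets). Another Kat2a probe set, 1422971_at, fell by 0.75 ± 0.13 (limma adjusted p = 0.0190). The brightest, 1426783_at, with a mean of 11.31, was not called over both lines (0.18 ± 0.16, limma adjusted p = 0.670). Its GCN5-/- minus GCN5+/- differences were 0.56, 0.38 and -0.41. Within line A it rose by 0.47 ± 0.09 (limma adjusted p = 0.0262). Where these probe sets lie relative to the deleted part was not analysed here. The 3 Kat2b probe sets had mean signals of 4.92 to 6.68, below the filter at 6.80. Of 10 fibroblast markers all 10 passed the signal filter, and their summed linear signal ran from 143296 to 157225 in GCN5+/- and from 139700 to 142703 in GCN5-/- arrays. By their calls over both lines 5 of the 10 fell, where 4.77% of named genes tested did by brightest probe set. Among the 5 was Col1a1, by 0.35 ± 0.03 (SE, limma adjusted p = 0.000666). Of the epithelial, endothelial, skeletal muscle and neural lists of 4 genes each, 2 (Epcam, Krt8), 1 (Kdr), 1 (Des) and 2 (Nes, Tubb3) passed, with Cdh1, Pecam1, Myod1 and Sox2 among those below; none was called over both lines, and Tubb3 fell in line A by 0.73 ± 0.12 (SE; limma adjusted p = 0.0113). The leukocyte list, of which 3 of 5 genes passed (Ptprc and Itgam did not), summed to 897 to 1713 in GCN5+/- and 1309 to 2577 in GCN5-/- arrays, with Cd53 higher by 0.85 ± 0.09 (SE; limma adjusted p = 0.00167); the part of these markers in the results was not tested.

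In GCN5-/- cells Myc and 6 ribosome and growth genes were higher, by modest amounts of 1.14-fold to 1.59-fold, and no member was called lower. The 7 were Myc, Nop56, Dkc1, Bop1, Rrp12, Polr1a and Odc1. A call here is a limma adjusted p (Benjamini-Hochberg over 27022 probe sets) under 0.05, from a fit of GCN5-/- minus GCN5+/- with cell line as a covariate. Over all probe sets tested, 4.2% were called higher and 4.31% lower, and over the brightest probe set of each named gene 5.09% and 4.77%. The median log2 change was 0.21 over the 31 members and -0.01 over all probe sets tested. In 13 of the 31 every GCN5-/- array was above every GCN5+/- array, and in 1 every one was below, which held for 8.2% and 8.79% of all probe sets tested. At an unadjusted p under 0.05, 17 were higher and 2 lower (Mxd4 and Cdk4), beside 11.7% and 12.7% of all probe sets tested. These counts rest on how line was treated and on single arrays. With no line term 0 members were called (limma; 69 of 27022 probe sets were called), 1 was called when line entered as a random effect and 1 when the duplicates were averaged (Bop1 in either). Without GCN5+/- A1, A2 or B the count of higher members was 1, 2 or 13, and without GCN5-/- A1, A2 or B it was 2, 1 or 14. Without either B array 1 member, Mxd4, was called lower. With 1 B array left out, the line term takes up the other, so the genotype change in those fits is that of line A alone. Bop1 kept its call without each array in turn, Myc lost it without GCN5+/- A1 or GCN5-/- A2, Nop56, Dkc1, Rrp12 and Polr1a lost it without any 1 of the 4 line A arrays, and Odc1 without any of the 6.

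For most members the GCN5-/- minus GCN5+/- difference, with its sign, was higher in line A than in line B. The GCN5-/- minus GCN5+/- difference was above 0 for 28 of 31 members in A1, 28 in A2 and 19 in B, while 50%, 48.9% and 48.2% of all probe sets tested were above 0. The median difference over members was 0.29, 0.29 and 0.06 in the 3 pairs. For 27 of 31 members both line A differences, with their signs, exceeded the line B difference, as did 36.9% of all probe sets tested. Among the 27, Fbl, Cad, Nme1 and Cdk4 had their largest difference in size in line B, where they were lower in GCN5-/- cells. Max and Mxd4, not among the 27, differed more in size in line A, where they were lower. Fitted within line A alone, 13 members were higher and 1 lower, where 4.2% and 4.39% of all probe sets were called. All p-values within line A rest on that single line, and the spread of each gene comes from its duplicates, with 2 residual degrees of freedom. Without GCN5+/- A1 the 13 became 8, and they were 10, 15 and 9 without GCN5+/- A2, GCN5-/- A1 and GCN5-/- A2.

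The difference between the lines was tested gene by gene with the genotype by line interaction, the line B effect minus the line A effect. No member was called (0 of 31; limma), and 0.0481% of all probe sets tested were. At an unadjusted p under 0.05, 13 members passed, 12 of them with a lower genotype effect in line B than in line A and Mxd4 with a higher one, beside 3.9% and 3.76% of all probe sets tested. Its spread comes from the duplicates of line A alone, with 2 residual degrees of freedom.

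**Figure D1:**
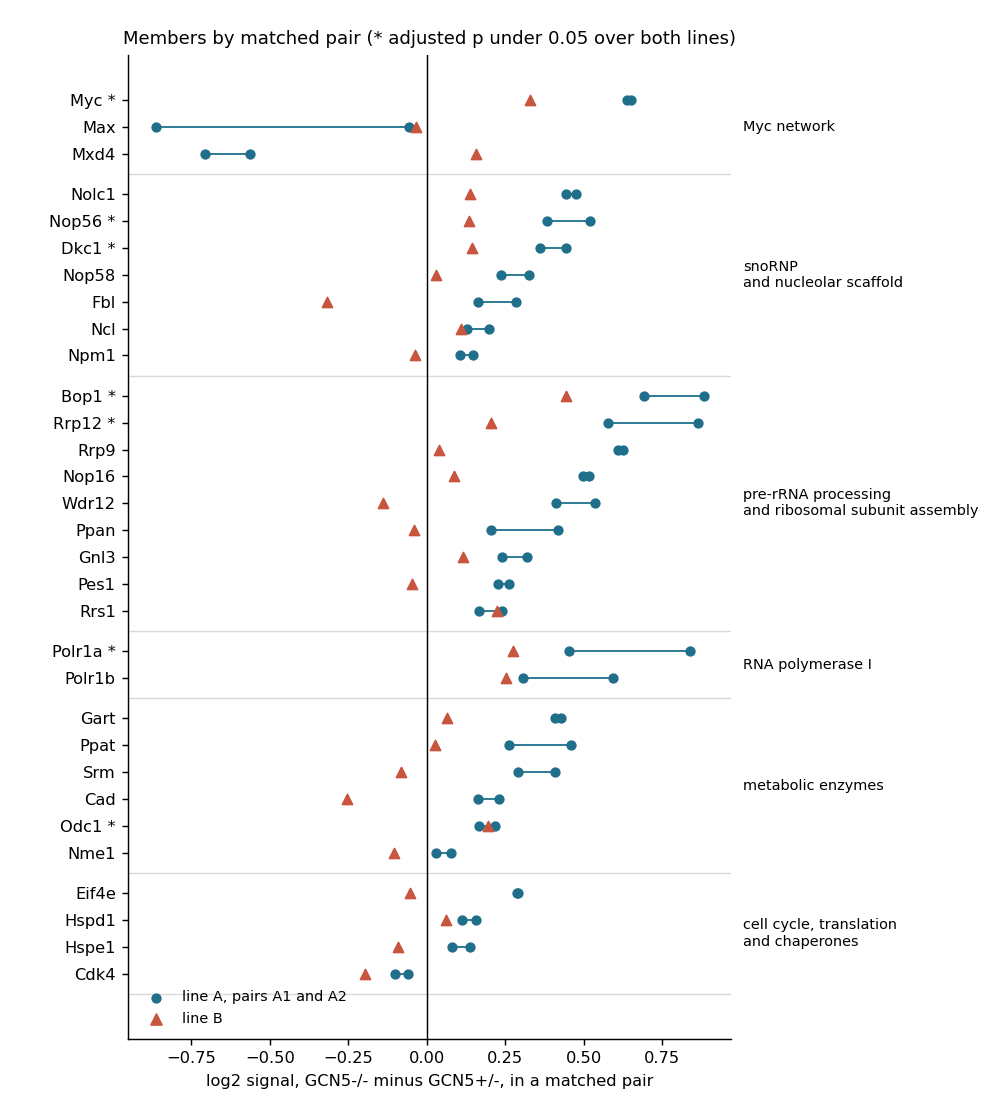
Log2 signal in GCN5-/- minus GCN5+/- arrays for the 31 members, grouped by role; blue points are pairs A1 and A2 of line A, joined by a line, and red triangles are line B. In pair B 19 of 31 members lie above 0, against 28 in each line A pair; asterisks mark the 7 members called over both lines.

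Myc itself was among the members with the clearest change. Its log2 signal was 11.74, 11.93 and 12.19 in GCN5+/- cells against 12.38, 12.58 and 12.51 in GCN5-/- cells. Every GCN5-/- array was above every GCN5+/- array. Myc rose by 0.54 ± 0.09 (log2, SE; limma adjusted p = 0.0139), a 1.45-fold change; the differences were 0.64, 0.65 and 0.33. The call was lost without GCN5+/- A1 (limma adjusted p = 0.0605), without GCN5-/- A2 (0.0587), with no line term (0.206), with a random effect of line (0.0545) and after averaging the duplicates (0.0735).

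Max, the partner that Myc needs to bind DNA, read 8.39, 9.52 and 9.59 in GCN5+/- cells against 8.33, 8.66 and 9.55 in GCN5-/- cells. The 2 GCN5+/- duplicates of line A lay 1.13 apart, the widest duplicate gap of any member, and the groups overlapped. Its log2 change of -0.32 ± 0.26 (SE) was not called (limma adjusted p = 0.525), and was 0.046 without GCN5+/- A2.

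Mxd4, the repressor of the network, differed in opposite directions in the 2 lines. It read 10.76 and 10.77 in GCN5+/- A1 and A2 against 10.19 and 10.06 in GCN5-/- A1 and A2, and 10.08 against 10.23 in line B. In line A it fell by 0.64 ± 0.10 (log2, SE; limma adjusted p = 0.0114), both duplicates of a genotype lying on the same side. Over both lines the change of -0.37 ± 0.16 was not called (limma adjusted p = 0.189). The interaction was 0.79 ± 0.18 and was not called after adjustment (limma adjusted p = 0.256, unadjusted p = 0.00265). Its other 3 probe sets differed by -0.20 to -0.40 (A1), -0.41 to -0.72 (A2) and -0.00 to -0.16 (B), so the higher GCN5-/- value of the brightest probe set in line B was not shared by them.

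The wider network of 10 further genes, all of which passed the filter, had 0 called higher and 2 lower. Of named genes tested, by brightest probe set, 5.09% were called higher and 4.77% lower. The largest change was a fall of Mycn, a close relative of Myc best known from embryonic and neural tissue. Its brightest probe set, 1425923_at, read 14.31, 14.52 and 14.94 in GCN5+/- cells against 12.88, 12.80 and 13.99 in GCN5-/- cells. Each GCN5-/- array was below every GCN5+/- array. The fall was 1.37 ± 0.12 (log2, SE; limma adjusted p = 0.000653), and 13 of 14 alternative fits called it; with no line term it was not called (limma adjusted p = 0.224). The other 2 Mycn probe sets lay below the signal filter, with 1425922_a_at differing by 0.04, 0.12 and 0.12 and 1417155_at by 0.18, 0.12 and -0.83, so they do not show the fall in line A. Mycl, another family member, fell by 0.46 ± 0.10 (limma adjusted p = 0.0310), by 0.47, 0.53 and 0.39 in the 3 pairs. Of its 13 alternative fits 4 called it, and its mean signal of 7.63 was low. Its other probe sets lay below the signal filter. There 1422087_at differed by -0.18, -0.11 and -0.19, and 1422088_at by 0.23, -0.15 and -0.09. The other 8 genes, which include the repressors Mnt, Mxd1, Mxd3 and Mxi1, were not called, with changes from -0.26 (Mxd3) to 0.31 (Mlx, a relative of Max; limma adjusted p = 0.0535).

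**Figure D2:**
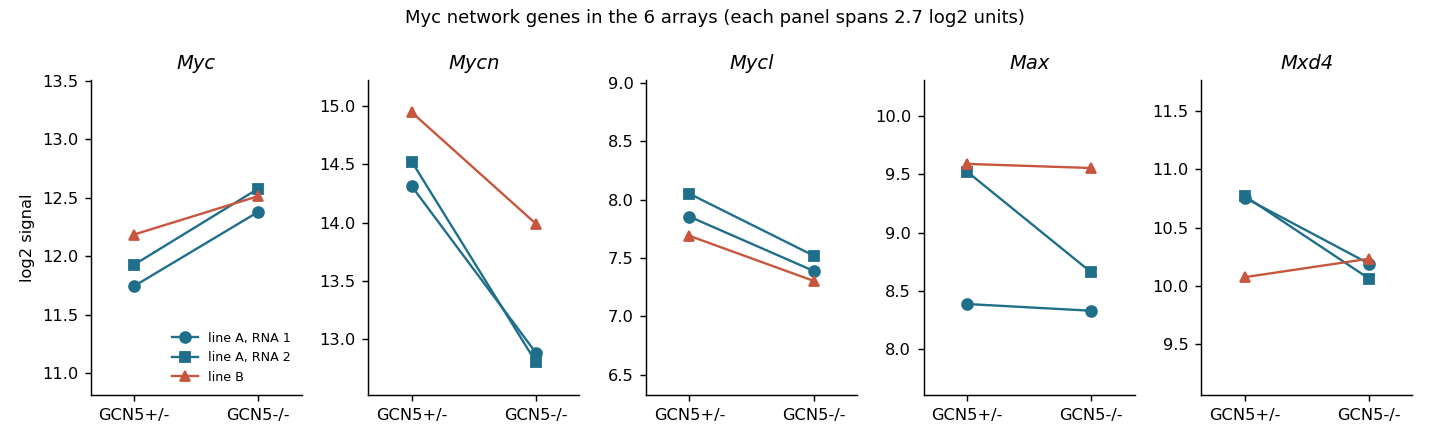
Log2 signal of Myc, Mycn, Mycl, Max and Mxd4 in GCN5+/- and GCN5-/- arrays. Lines join RNAs of the same replicate name in line A (blue) and line B (red), and each panel spans the same range. Myc is higher and Mycn and Mycl are lower in GCN5-/- arrays of all 3 pairs, while Mxd4 is lower in line A and 0.16 higher in line B.

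Promoter windows from RefSeq (GRCm38.p6; 250 bases before to 50 after a transcript start) were found for 25 of the 32 genes, Mat2a among them. The canonical E-box CACGTG, which reads the same on both strands, was in a window of 7 of these 25 genes (28.0%), against 8.09% of all 27025 genes with a window and 7.15% of all 32851 windows. The members' windows had a median of 22 CpG dinucleotides against 7 over all windows, and of all windows with at least 22 CpGs 11.39% held the motif. The 7 were Max, Mxd4, Pes1, Nme1, Cdk4, Eif4e and Hspd1. None of the 7 was called over both lines, while 4 of the 17 measured members without the motif were (Nop56, Dkc1, Polr1a and Odc1). Myc, Npm1, Fbl, Rrs1, Bop1, Rrp12 and Srm had no window, so the called members Myc, Bop1 and Rrp12 are outside this comparison. Median line A changes were 0.05 with the motif and 0.40 without it. The CACGCG variant (both strands), a different run of letters from CACGTG, was in a window of 8 of the 25 genes against 10.49% of all genes. Its share among windows with at least 22 CpGs was not analysed. Median line A changes were 0.27 with this variant and 0.32 without it, and Odc1, which lacks CACGTG, held 2 copies. Pes1 held both motifs in the same window, and Eif4e and Hspd1 held them in different windows. A match is only a run of letters, and its absence in this window says nothing about binding by Myc. The 250 bases before the start are shown for Cdk4, which holds the most E-boxes of the 25 genes with a window and was not called, for Mxd4, which was lower in line A, and for Nop56 and Polr1a, which rose; capitals mark CACGTG.
Cdk4, chr10:127063285-127063534, + strand: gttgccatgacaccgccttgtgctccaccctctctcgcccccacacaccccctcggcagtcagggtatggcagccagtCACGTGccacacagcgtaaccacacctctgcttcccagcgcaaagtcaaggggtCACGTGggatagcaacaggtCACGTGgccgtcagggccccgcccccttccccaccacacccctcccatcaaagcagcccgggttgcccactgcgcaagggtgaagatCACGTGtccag
Mxd4, chr5:34187711-34187960, - strand: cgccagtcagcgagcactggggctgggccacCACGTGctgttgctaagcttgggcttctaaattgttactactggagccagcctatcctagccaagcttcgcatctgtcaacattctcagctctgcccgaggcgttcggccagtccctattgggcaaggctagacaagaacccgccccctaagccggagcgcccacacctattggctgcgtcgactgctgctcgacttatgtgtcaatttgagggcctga
Nop56, chr2:130274162-130274411, + strand: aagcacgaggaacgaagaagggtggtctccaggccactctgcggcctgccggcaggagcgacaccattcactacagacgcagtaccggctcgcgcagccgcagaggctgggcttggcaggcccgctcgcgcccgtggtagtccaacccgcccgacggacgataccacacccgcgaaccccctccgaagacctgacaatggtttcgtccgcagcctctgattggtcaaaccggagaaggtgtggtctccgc
Polr1a, chr6:71908803-71909052, + strand: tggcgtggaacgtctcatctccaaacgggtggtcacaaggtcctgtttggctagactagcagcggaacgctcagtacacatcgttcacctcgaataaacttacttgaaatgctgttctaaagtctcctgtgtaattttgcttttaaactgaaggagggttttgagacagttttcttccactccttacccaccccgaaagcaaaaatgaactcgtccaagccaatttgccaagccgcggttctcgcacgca
The 4 Cdk4 copies begin 172, 118, 98 and 11 bases before the start, and the Mxd4 copy 219 bases before it.

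Of the 7 snoRNP and nucleolar scaffold genes, 2 were called higher over both lines and 3 within line A. Their median difference was 0.28 in line A and 0.11 in line B. Nop56, a core protein of the box C/D snoRNPs that methylate ribosomal RNA, read 12.48, 12.41 and 12.75 in GCN5+/- cells against 12.86, 12.93 and 12.89 in GCN5-/- cells. All GCN5-/- arrays lay above all GCN5+/- arrays. Nop56 rose by 0.34 ± 0.07 (log2, SE; limma adjusted p = 0.0291), and its other probe set, 1426533_at, by 0.38 ± 0.08 (limma adjusted p = 0.0291).

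Dkc1, the pseudouridine synthase of the box H/ACA snoRNPs, read 12.45, 12.34 and 12.67 in GCN5+/- cells against 12.89, 12.70 and 12.82 in GCN5-/- cells. The groups did not overlap, although GCN5+/- B was close to GCN5-/- A2. It rose by 0.32 ± 0.08 (log2, SE; limma adjusted p = 0.0478), close to the threshold. Nolc1, a nucleolar chaperone of snoRNPs, read 11.80, 11.94 and 12.00 in GCN5+/- cells against 12.24, 12.41 and 12.14 in GCN5-/- cells. Its change of 0.35 ± 0.09 just missed the threshold (limma adjusted p = 0.0506), was called with the replicate block (0.0479), and was called at a dimmer probe set, 1428870_at (0.66 ± 0.11; limma adjusted p = 0.0139).

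The 4 other scaffold genes were not called over both lines. Fibrillarin (Fbl), the methyltransferase of the box C/D snoRNPs, split by line: 12.78 and 12.71 against 12.95 and 12.99 in line A, and 12.95 against 12.63 in line B. Its differences were thus 0.16, 0.28 and -0.32, and both probe sets behaved alike (0.19, 0.23 and -0.32 at 1416684_at). The interaction of -0.54 ± 0.10 (SE) was not called after adjustment (limma adjusted p = 0.137, unadjusted p = 0.000606). Nucleolin (Ncl), an abundant nucleolar RNA-binding protein, differed by 0.13, 0.20 and 0.11, Nop58, the partner of Nop56, by 0.33, 0.24 and 0.03, and nucleophosmin (Npm1), a nucleolar chaperone, by 0.11, 0.15 and -0.04 (limma adjusted p = 0.0611, 0.330 and 0.370).

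Among genes for processing of ribosomal RNA and subunit assembly, 2 of 9 were called over both lines and 5 of 9 within line A. In line A all 9 had both GCN5-/- duplicates above both GCN5+/- duplicates, as did 25.4% of all probe sets tested. The median difference was 0.47 for line A against 0.09 for line B. Bop1, which with Pes1 and Wdr12 forms the PeBoW complex of large subunit assembly, read 11.48, 11.42 and 11.97 in GCN5+/- cells against 12.17, 12.30 and 12.42 in GCN5-/- cells. Every GCN5-/- array was above every GCN5+/- array. Bop1 rose by 0.67 ± 0.09 (log2, SE; limma adjusted p = 0.00446), a 1.59-fold change and the largest among members at this probe set. Its other probe set, 1430491_at, was not called (0.13 ± 0.11; limma adjusted p = 0.528), with differences of 0.25, 0.11 and 0.01, and the mean of both changed by 0.40 (limma adjusted p = 0.0347), less than Myc or Rrp12 read the same way. Of 16 alternative fits 15 called Bop1; with no line term it was not called (limma adjusted p = 0.218).

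The complex partners of Bop1 were not called over both lines. Wdr12 read 10.38, 10.35 and 10.87 in GCN5+/- cells against 10.80, 10.89 and 10.73 in GCN5-/- cells, so it was higher in both line A pairs and 0.14 lower in line B. Within line A it rose by 0.47 ± 0.10 (log2, SE; limma adjusted p = 0.0246), and over both lines the change of 0.27 ± 0.13 was not called (limma adjusted p = 0.248). At its dimmer probe set 1417270_at the differences were 0.40, 0.36 and 0.27, so the sign in line B differed between probe sets. Pes1 differed by 0.23, 0.26 and -0.05 (limma adjusted p = 0.346), and at its dimmer probe set 1416173_at by 0.14, 0.10 and 0.53 (limma adjusted p = 0.238), so there too the sign in line B differed.

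Rrp12, which acts in export of both ribosomal subunits, read 8.64, 8.60 and 8.90 in GCN5+/- cells against 9.22, 9.46 and 9.11 in GCN5-/- cells. The groups did not overlap, and line B had the smallest difference (0.20). Rrp12 rose by 0.55 ± 0.13 (log2, SE; limma adjusted p = 0.0427). Rrp9, the U3 snoRNP protein of small subunit processing, read 10.97, 10.99 and 11.47 in GCN5+/- cells against 11.58, 11.61 and 11.51 in GCN5-/- cells. In line A it rose by 0.62 ± 0.08 (limma adjusted p = 0.00436), while line B differed by 0.04. Over both lines its change of 0.42 ± 0.12 was not called (limma adjusted p = 0.0638), and neither was the interaction of -0.58 ± 0.14 (limma adjusted p = 0.284).

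Nop16, a large subunit assembly factor, read 11.08, 11.06 and 11.40 in GCN5+/- cells against 11.58, 11.57 and 11.48 in GCN5-/- cells. As for Rrp9, the GCN5+/- B array lay well above the GCN5+/- duplicates of line A, and the GCN5-/- arrays of both lines were close together. Nop16 rose within line A by 0.51 ± 0.08 (log2, SE; limma adjusted p = 0.00960), and over both lines 0.37 ± 0.10 missed the threshold (limma adjusted p = 0.0560). The 3 other assembly factors, Rrs1 (0.21 ± 0.08), the nucleolar GTPase Gnl3 or nucleostemin (0.23 ± 0.07) and Ppan (0.19 ± 0.10), were not called (limma adjusted p = 0.134, 0.0906 and 0.267).

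Both RNA polymerase I subunits had higher signals in GCN5-/- arrays of all 3 pairs, and 1 was called. Polr1a, the largest subunit, read 10.32, 10.31 and 10.50 in GCN5+/- cells against 10.77, 11.15 and 10.77 in GCN5-/- cells. The groups did not overlap, with GCN5-/- A2 the highest array. It rose by 0.52 ± 0.12 (log2, SE; limma adjusted p = 0.0408), and probe set 1456066_a_at rose by 0.36 ± 0.09 (limma adjusted p = 0.0493); the mean of its 5 probe sets was not called (0.28; limma adjusted p = 0.0770). Polr1b, the other of the 2 largest subunits, differed by 0.31, 0.59 and 0.25, a change of 0.38 ± 0.10 that just missed the threshold (limma adjusted p = 0.0554).

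Among the metabolic genes, 1 of 6 was called over both lines, and their median difference was 0.27 in line A and -0.03 in line B. Odc1, ornithine decarboxylase and the entry step of polyamine synthesis, read 12.87, 12.90 and 12.95 in GCN5+/- cells against 13.04, 13.12 and 13.14 in GCN5-/- cells. At this probe set its differences of 0.17, 0.22 and 0.19 had the smallest spread over the 3 pairs of all 31 members, and its groups did not overlap. Odc1 rose by 0.19 ± 0.05 (log2, SE, limma adjusted p = 0.0482). The call was lost with the replicate block (limma adjusted p = 0.0573) and with the mean of its probe sets. Its dimmer probe sets were not called. At 1437711_x_at the change was 0.16 ± 0.07 (limma adjusted p = 0.235), with differences of 0.15, 0.10 and 0.22. At 1427364_a_at it was 0.14 ± 0.10 (limma adjusted p = 0.449), with differences of 0.10, 0.27 and 0.03. Spermidine synthase (Srm), a later step of the same pathway, read 13.14, 13.02 and 13.23 in GCN5+/- cells against 13.43, 13.43 and 13.15 in GCN5-/- cells. It rose within line A by 0.35 ± 0.05 (limma adjusted p = 0.00915) and was 0.08 lower in line B.

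The 2 purine synthesis genes were not called over both lines at their brightest probe sets. Gart, which catalyses 3 steps of purine synthesis, read 11.07, 11.15 and 11.83 in GCN5+/- cells against 11.50, 11.56 and 11.90 in GCN5-/- cells. Both line B arrays lay above all line A arrays, and the line difference of 0.54 (line B minus line A; limma adjusted p = 0.00504) exceeded the genotype change of 0.30 ± 0.09 (SE), which was not called (limma adjusted p = 0.0803). Within line A, Gart rose by 0.42 ± 0.08 (limma adjusted p = 0.0200). Ppat, the first committed step of the pathway, differed by 0.46, 0.26 and 0.03 (limma adjusted p = 0.215), and its probe set 1452831_s_at rose by 0.40 ± 0.10 (limma adjusted p = 0.0487). Cad, which starts pyrimidine synthesis, differed by 0.16, 0.23 and -0.25, and the nucleoside diphosphate kinase Nme1 by 0.03, 0.08 and -0.10 (limma adjusted p = 0.840 and 0.995).

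The 4 remaining genes were called neither higher nor lower over both lines. Eif4e, the cap-binding translation factor, read 12.76, 12.84 and 12.81 in GCN5+/- cells against 13.05, 13.13 and 12.76 in GCN5-/- cells. It rose within line A by 0.29 ± 0.06 (log2, SE; limma adjusted p = 0.0232), whereas in line B both arrays read about the same. Cdk4, a kinase of the G1 phase, was the single member with every GCN5-/- array below every GCN5+/- array, with differences of -0.06, -0.10 and -0.20 and a change of -0.12 ± 0.04 that was not called (limma adjusted p = 0.132). The mitochondrial chaperonins Hspd1 and Hspe1, a divergent gene pair, differed by 0.16, 0.11 and 0.06 and by 0.08, 0.14 and -0.09 (limma adjusted p = 0.102 and 0.702). The Hspe1 promoter window overlaps an Hspd1 window by 285 bases and another by 4, and the Hspd1 CACGTG lies in the latter.

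Of 36 dimmer probe sets that passed the filter, 36 had a fitted change over both lines with the sign of their gene's brightest probe set. How often this holds over all genes was not analysed. Of the 36, 5 were called higher and 0 lower, beside 4.2% and 4.31% of all probe sets tested. In pair B alone the sign differed between probe sets of Mxd4, Wdr12, Pes1, Npm1, Rrs1, Cad, Nme1 and Eif4e. Probe sets of a gene share its RNA and are not independent. Counting a gene by any of its probe sets, 9 of the 31 were called, beside 11.6% of all named genes tested.

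The GCN5+/- gap between the lines is given as a description, with no test. In GCN5+/- cells, 27 of 31 members read higher in line B than the mean of line A, where 53.2% of all probe sets tested did, and the median gap was 0.22 against 0.02 over all probe sets. In GCN5-/- cells 11 of 31 did, where 52.3% of all probe sets tested did, and the median gap was -0.06 against 0.01. Relative to each gene's mean in the 2 line A GCN5+/- arrays, the members' median was 0.25 and 0.33 in GCN5-/- A1 and A2, 0.22 in GCN5+/- B and 0.27 in GCN5-/- B. These comparisons share the line A GCN5+/- arrays, and line B has 1 RNA per genotype. In the fit over both genotypes, 4 of 31 members differed between lines, where 23.1% of all probe sets tested did: Gart, Bop1 (0.35; limma adjusted p = 0.0269) and Gnl3 (0.33; limma adjusted p = 0.0152) were higher in line B and Hspe1 (-0.20; limma adjusted p = 0.0429) lower.

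**Figure D3:**
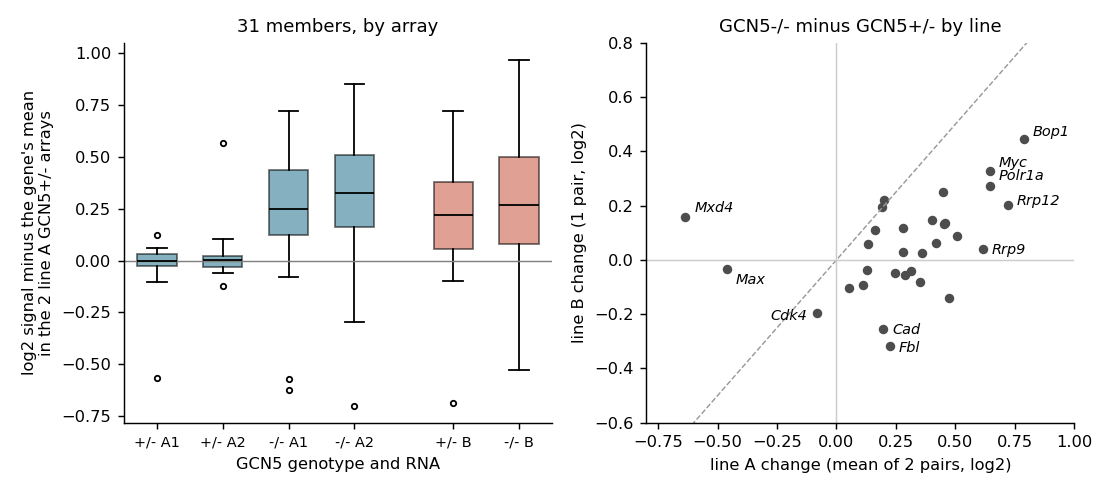
Left, log2 signal of the 31 members in each array relative to the gene's mean in the 2 line A GCN5+/- arrays, which centres those 2 boxes on 0; boxes show quartiles and whiskers reach 1.5 times the box height. Right, the line A change against the line B change per member, with the dashed line marking equal changes; the median in GCN5+/- B (0.22) is near those of the GCN5-/- arrays.

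Genes of the same pathways outside the 32 were read from lists, each gene by its brightest probe set. These lists too were chosen with earlier results of these data known. The counts are read beside the 5.09% of named genes called higher and 4.77% lower. Of 30 genes of the small subunit processome (the particle that makes the first cuts in the ribosomal RNA precursor), 5 rose and 0 fell, with a median log2 change of 0.26. Utp4 rose by 0.57 ± 0.08 (SE), Dcaf13 by 0.29 ± 0.07 and Bysl by 0.35 ± 0.08 (limma adjusted p = 0.00555, 0.0328 and 0.0410); with the replicate block Bysl was not called (limma adjusted p = 0.0546). Of 29 large subunit assembly genes, 7 rose and 0 fell, with a median of 0.30; Rrp1b rose by 0.45 ± 0.08, Las1l by 0.38 ± 0.08 and Gtpbp4 by 0.38 ± 0.08 (limma adjusted p = 0.0165, 0.0239 and 0.0313). Within line A, 12 of 30 and 18 of 29 genes of these lists rose, where 5.77% of named genes did, and all 29 large subunit genes were above 0 in both line A pairs against 23 in pair B.

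The other lists were shorter and had fewer calls by count, which does not compare the lists by share. Of 15 genes of RNA polymerase I and its factors 1 rose, Twistnb (0.39 ± 0.09, SE; limma adjusted p = 0.0337), a polymerase I subunit, and 0 fell. Of 8 snoRNP partners 0 were called over both lines (limma; 2 had an unadjusted p under 0.05) and 3 rose within line A; all 8 were above 0 in both line A pairs and 1 of 8 in pair B, the medians being 0.37 (line A) and -0.12 (line B). Of 18 genes of nucleotide, one-carbon and polyamine synthesis 3 rose and 0 fell: Shmt1, of serine and glycine exchange, by 0.73 ± 0.10, Atic, the last step of purine synthesis, by 0.36 ± 0.06 and the CTP synthase gene Ctps by 0.33 ± 0.08 (limma adjusted p = 0.00637, 0.0132 and 0.0378). Of 14 translation factors and chaperones 1 rose, Eef1e1 (0.48 ± 0.11; limma adjusted p = 0.0357, and 0.0525 with the replicate block). The interaction was called for 0 of the 124 genes in all these lists (limma), and 33 had an unadjusted p under 0.05, 32 of them with the lower genotype effect in line B, again beside 3.9% of all probe sets lower and 3.76% higher. Shmt1, Utp4 and Mycn kept their calls without each array in turn, but with no line term none of the 3 was called (limma adjusted p = 0.198, 0.563 and 0.224), and Utp4 was called neither with a random effect of line (0.151) nor after averaging the duplicates (0.0664). Over all 14 alternative fits, Rrp1b and Atic were called in 8, Las1l and Twistnb in 7, Gtpbp4 and Dcaf13 in 6, Ctps and Eef1e1 in 5 and Bysl in 4. Atic lost its call without GCN5+/- A1, GCN5+/- A2 or GCN5-/- A2, Ctps without any array but GCN5-/- A1, Mycl without any of the 6, and the 7 others named (Rrp1b, Las1l, Gtpbp4, Twistnb, Dcaf13, Bysl and Eef1e1) without any 1 of the 4 line A arrays.

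**Figure D4:**
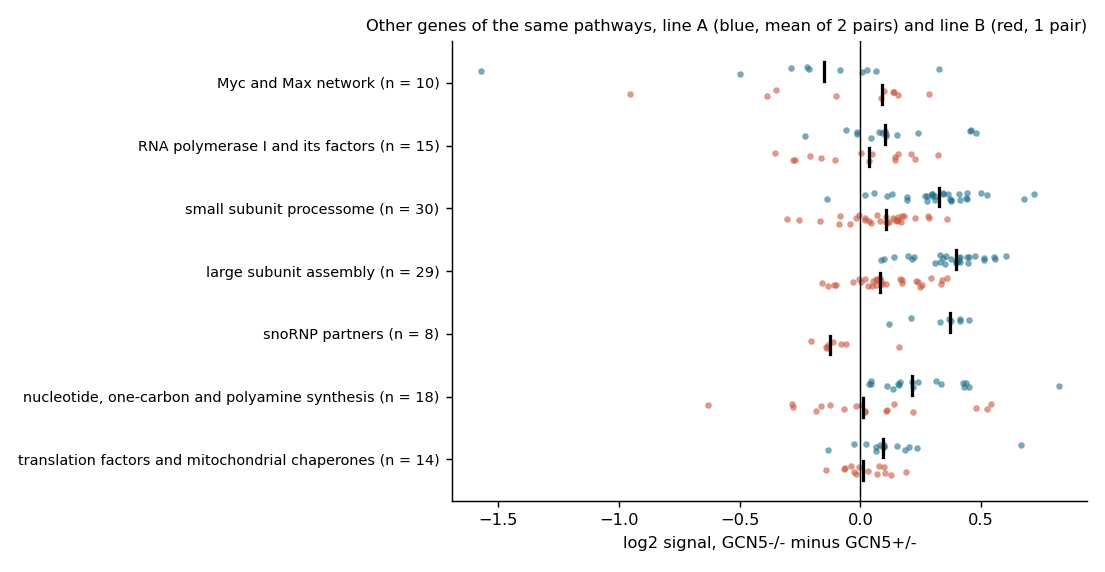
Log2 signal in GCN5-/- minus GCN5+/- arrays for further genes of the same pathways, 1 point per gene; blue is the mean of the 2 line A pairs, red is line B, black bars are medians and n is the number of genes that passed the filter. Medians of the small and large subunit lists are 0.33 and 0.39 in line A and 0.11 and 0.08 in line B.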

How the data were processed

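The authors deposited 1 table of probe set signals, taken as log2 because its values run from 3.13 to 15.2. MAS5 was named for 6 arrays and Partek for 1, per the submitters' processing notes, with no role; the normalization is not given in the sources used here, and the number of arrays limits the precision. Of 45101 probe sets, 64 controls were left out and 34945 carried 1 gene symbol. Probe sets with a mean under the 40th percentile (6.80) were left out, leaving 27022. limma 3.58.1 in R 4.3.3 (lmFit, eBayes with a trend) fitted genotype and line (3 residual degrees of freedom), and the genotype by line interaction with the line A effect (2). P-values were adjusted by Benjamini-Hochberg.

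The members and lists were chosen with earlier results of these data known. Further genes were named where called, up to 3 per list. Arrays with the same replicate name in the labels deviated together from their genotype means (r = 0.714, 0.727 and 0.846 for A1, A2 and B). These deviations hold the difference between lines that both genotypes share, so r cannot show that same-named RNAs were prepared together. In line A, the SD of the probe set differences between genotypes was 0.305 and 0.327 for same-named arrays. It was 0.3505 (GCN5+/- A1 to GCN5-/- A2) and 0.333 (GCN5+/- A2 to GCN5-/- A1) for the others. The replicate block was read as a possible pairing. Tested on simulated data for the genotype effect with 27022 probe sets, 22 of 100 changes of log2 size 0.5 and 74 of 100 of size 1 were recovered, with 1 false call. The simulated noise was independent between all arrays, and each change was equal in both lines. The data hold duplicates of a line, so these counts need not apply to them. Alternatives were the line term, replicate block, averaged duplicates, filter, quantile normalization, trend, choice of probe set and each array left out. The fits without a B array give the line A change, so in counts of alternative fits they do not stand for both lines.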

Additional observations from a re-analysis of the deposited data

Results flagged for a closer look

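Lum, a fibroblast marker and no member of the list, had a fitted genotype effect that differed between the lines, line B minus line A being -2.319 (log2; limma adjusted p = 0.04366), with differences of -0.92, -0.65 and -3.11 in pairs A1, A2 and B. All 4 line A arrays (6.43, 6.45, 5.51 and 5.80) lay under the filter level of 6.80, which Lum passed on its mean through line B (10.59 and 7.48), so the line A effect rests on signals under that level.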

How the results depend on the processing

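The count of 2299 called probe sets became 69 with no line term, 532 with a random block for line and 709 with averaged line A duplicates, and ranged from 645 to 2309 with 1 array left out. The 7 members called higher became 0, 1 and 1 under those first 3 settings, 4 with no level filter, 11 with the filter at the 60th percentile, 11 with quantile normalization and 2 with eBayes without a trend, and ranged from 1 to 14 with 1 array left out; the members called lower ranged from 0 to 1. The 13 probe sets called for the interaction became 27 with no filter, 4 with the 60th percentile filter, 4 with quantile normalization and 0 without a trend, and ranged from 55 to 104 with 1 line A array left out; without a line B array it could not be fitted. The 13 members higher in line A became 4 without a trend and ranged from 8 to 15 with 1 array left out. The 4 members that differed between lines became 2 with averaged duplicates and 2 without a trend, and ranged from 2 to 8 with 1 array left out. Averaging the duplicates turned Fbl to -0.047, Cad to -0.028 and Nme1 to -0.025. With 1 array left out, Max ranged from -0.60 to 0.046, Fbl from -0.030 to 0.22, Cad from -0.027 to 0.20 and Nme1 from -0.038 to 0.053. The 4 turned without GCN5+/- A2, Cad and Nme1 also without GCN5-/- A1, and Fbl and Nme1 without GCN5-/- A2, and none was called there. The replicate block called 7 members (Nolc1 gained, Odc1 lost) and 2627 probe sets, and changed the call of no other member. The causes of these shifts were not tested. The members' median change stayed between 0.28 and 0.30 in line A and between 0.06 and 0.10 in line B under the alternatives run. With 2 lines and duplicates of 1, small changes are poorly resolved.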
